A study of Mus musculus with 24 samples.

Results

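Interferon-stimulated genes are the genes a cell switches on after an interferon binds its receptor. The 39 genes described here were taken by symbol from the count table of a mouse liver RNA-Seq experiment, as a list of well-known genes induced by type I and type II interferons. Each of the 39 symbols matched 1 of 56205 gene rows, and all 39 passed the filter on low counts that left 14109 genes for testing. Male and female C57BL/6J mice were kept for 20 weeks on a methionine-choline deficient (MCD) diet, a model of fatty liver with inflammation and fibrosis, or on a control diet that the labels also call chow. There were 12 libraries of poly(A) RNA from whole liver per diet, the label of each library names its diet and a replicate number, and the age at sampling is not given. The labels name no altered gene or other agent in either group. The study's methods describe the MCD diet as rich in fat, so the lack of methionine and choline and the fat content cannot be told apart. Elsewhere the study's text names another choline-deficient diet (CDAHFD) for its mice, so the exact composition is uncertain, and MCD is kept from the labels.

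Type I interferons (interferon alpha and beta) and type III interferons (interferon lambda) signal through the kinases JAK1 and TYK2 to a complex that holds STAT2 and IRF9 and binds a DNA element called the interferon-stimulated response element (ISRE). Type II interferon (interferon gamma) signals through JAK1 and JAK2 to factors that bind gamma-activated sites (GAS). The products detect foreign nucleic acids, block translation of viral RNA, degrade RNA, modify proteins with ISG15, and, in the case of the large GTPases, coat the vacuoles of intracellular microbes. In liver, hepatocytes, macrophages and endothelial cells can all mount this response.

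The DNA just before the start sites of several members is shown first, because the elements that answer to interferon lie there. The RefSeq windows (250 bases before to 50 bases after a start, GRCm38.p6) held 28 of the 39 members. The letters GAAANNGAAA, searched on both strands as the core of an ISRE, were present in 19 of these 28 members (67.9%) and in 3.44% of all 32851 windows. The letters TTCNNNGAA, the core of a GAS, were present in 28.6% of these members and in 8.30% of all windows, and both were present in 21.4% and 0.454%. The stretches below are given 5′ to 3′ on the strand of the gene, with every base that belongs to a match in capitals. Those of Ifit1, Ifit3, Ifit3b, Isg15, Oas1a and Rsad2 stand for antiviral genes, Gbp3, Igtp, Irgm2 and Tgtp2 for the GTPases, and Irf1 for a factor with a GAS alone. A match is a description of letters and not a measured binding site.
Ifit1 (chr19:34640775-34640823, + strand): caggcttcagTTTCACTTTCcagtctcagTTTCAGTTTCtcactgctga
Ifit3 (chr19:34583363-34583426, + strand): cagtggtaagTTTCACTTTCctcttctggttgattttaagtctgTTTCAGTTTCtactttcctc
Ifit3b (chr19:34607759-34607822, + strand): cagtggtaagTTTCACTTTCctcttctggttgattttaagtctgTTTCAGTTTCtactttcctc
Isg15 (chr4:156200865-156200906, - strand): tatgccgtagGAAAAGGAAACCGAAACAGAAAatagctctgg
Oas1a (chr5:120907526-120907555, - strand): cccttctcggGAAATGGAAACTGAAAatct
Rsad2 (chr12:26456553-26456582, - strand): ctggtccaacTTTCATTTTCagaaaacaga
Gbp3 (chr3:142559989-142560024, + strand): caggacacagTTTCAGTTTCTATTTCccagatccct
Igtp (chr11:58199501-58199541, + strand): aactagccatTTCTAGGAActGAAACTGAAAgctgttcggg
Irgm2 (chr11:58214892-58214932, + strand): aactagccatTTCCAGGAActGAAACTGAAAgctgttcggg
Tgtp2 (chr11:49064263-49064303, - strand): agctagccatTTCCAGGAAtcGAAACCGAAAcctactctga
Irf1 (chr11:53769914-53769942, + strand): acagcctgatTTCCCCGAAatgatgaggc

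None of these stretches overlaps an annotated exon in GENCODE M21. The Irgm2 stretch lies in an intron of a longer Irgm2 transcript, the Tgtp2 stretch in an intron of Olfr56 on the other strand, and the rest outside genes. The Ifit3 and Ifit3b stretches were identical over 64 bases, and those of Igtp and Irgm2 differed at 1 of 41 bases. In Igtp, Irgm2 and Tgtp2 a GAS stands directly before an ISRE. All 7 GTPase members with a window held an ISRE match and 4 of the 7 held a GAS match, whereas 12 of the 21 other members held an ISRE match and 4 a GAS match. Isg15 carried 3 overlapping ISRE matches, and the window of Irf7 held neither set of letters.

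Depth was even across the groups, from 16793207 to 24915175 counts per control library and from 16388650 to 24577848 per MCD library. The scaling factors (trimmed mean of M values, TMM) were 0.642 to 0.973 in control and 1.07 to 1.26 in MCD without overlap, so another scaling shifts every fold change. With total counts alone the median over all genes moved by 0.37 on the log2 scale. Control replicate 12, with the lowest factor, stood apart from the other control libraries. It was the highest control library for 8 members and the lowest for 10, among the latter Irf9, Ifih1, Ddx58 and Iigp1. Hepatocyte markers were abundant throughout, at a summed 73648 to 172328 CPM (counts scaled to a common library size) in control and 55604 to 84046 in MCD, with 2 of 8 lower in MCD. In whole tissue, a change in the share of a cell type and a change in RNA per cell cannot be told apart.

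In the comparison of the diets, 23 of the 39 members rose in MCD liver and 0 fell, where a call needed FDR ≤ 0.01 and |log2FC| > 0.5. This is 59.0% of the members, against 19.2% of all tested genes higher in MCD and 19.1% lower. DESeq2 called 25 higher and 0 lower, and limma-voom 18 higher and 0 lower. At an unadjusted p under 0.05, edgeR gave 26 members higher and 1, Stat2, lower. The median log2 fold change of the members was 1.01, beside -0.10 over all genes. The antiviral effectors carried the rise, with all 4 IFIT genes, all 5 OAS genes and 11 of 13 genes of the ISG15 and effector class called. Among the 4 nucleic acid sensors 1 was called, and among the 9 GTPases 2. Of the 4 transcription factors edgeR and limma-voom called 0, with 1 higher and 1 lower at an unadjusted p under 0.05, while DESeq2 called Irf7 higher. Every MCD library lay above every control library for 4 members (10.3%), beside 9.50% of all genes. The other 19 called members overlapped between the diets in at least 1 library.

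**Figure D1:**
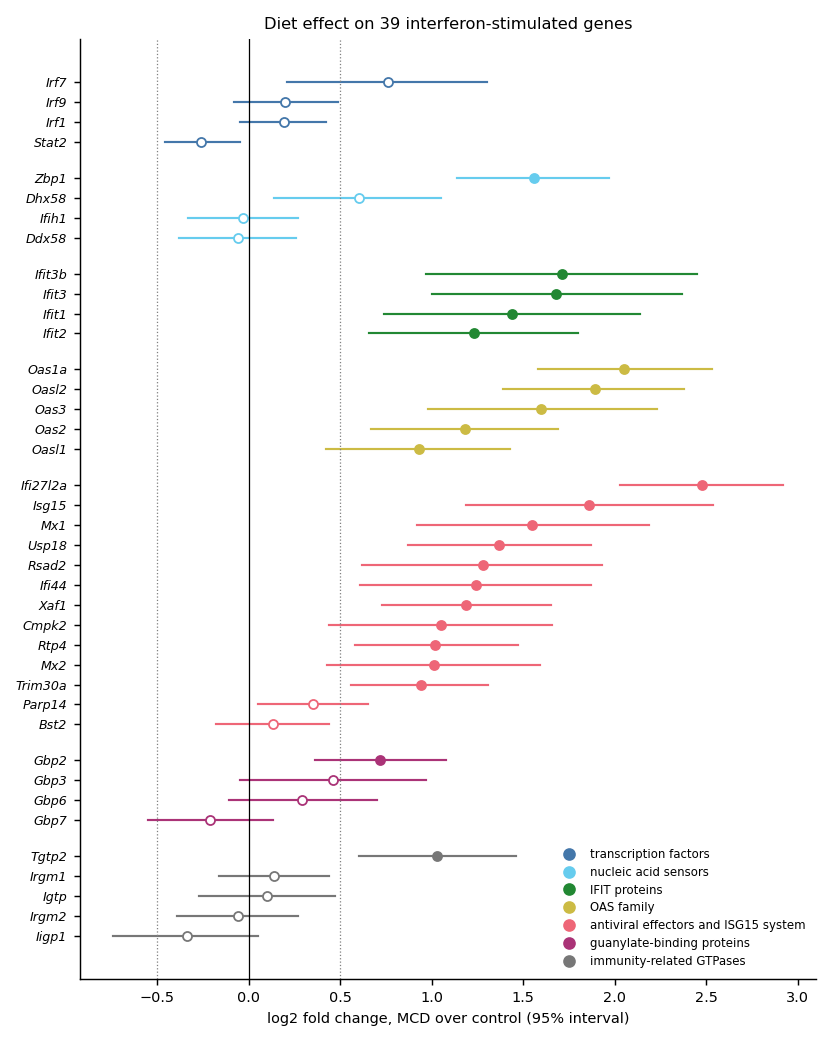
Log2 fold change of MCD over control (x axis) for each of the 39 members, grouped and coloured by role, with the 95% interval of the edgeR fit over 24 libraries. Filled points passed the FDR of 0.01 and the log2 limit of 0.5 (dotted lines). Ifi27l2a is highest at 2.48, and 0 of the 4 transcription factors and 2 of the 9 GTPases are filled.

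The IFIT proteins bind foreign RNA and keep it from being translated. Ifit3, which strengthens the binding of its relatives, was measured at 14.8 to 29.2 CPM in control (median 21.9) and at 22.4 to 225 in MCD (median 42.6), a log2 fold change of 1.68 (SE 0.33, FDR = 8.73e-05). The 9 MCD libraries above every control still left 3 within the control range. Ifit1, the cap-sensing member, had a control median of 10.03 CPM (6.89 to 15.6) and an MCD median of 17.8 (7.72 to 91.2), for a log2 fold change of 1.44 (SE 0.34, FDR = 0.000656). Ifit3b ran from 2.46 through 5.10 to 6.70 CPM in control and from 4.28 through 8.10 to 55.3 in MCD, a log2 fold change of 1.71. For this copy of Ifit3, 44.5% of the 51-base stretches of the transcript also occur in other genes, and 50.8% of those of Ifit3, so reads could be split between the copies. Ifit2 rose by 1.23.

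The oligoadenylate synthetases make 2′-5′ oligoadenylate, which activates RNase L. Oas1a ran from 6.77 to 16.2 CPM in control (median 7.99) and from 20.3 to 71.1 in MCD (median 27.8), so the diets did not overlap. Its log2 fold change was 2.05 (SE 0.23, FDR = 2.33e-08), with 57.0% of its 51-base stretches shared, mainly with Oas1g. Oasl2, a relative with ubiquitin-like domains, was also apart in every library, at 4.02 to 10.6 CPM (median 6.66) and 11.4 to 49.0 (median 20.6), a log2 fold change of 1.89 (SE 0.24). Oas3, which makes long oligoadenylates, was low in control, at 0.884 to 4.75 CPM (median 2.17), and reached 2.30 to 17.9 in MCD (median 5.58), a log2 fold change of 1.60. Oasl1, a close relative of Oasl2, was at 12.4 to 29.4 CPM (median 17.6) and 15.7 to 80.4 (median 26.2), and rose by 0.93 (SE 0.25, FDR = 0.00205). Oas2 rose by 1.18.

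In the class of the ISG15 system and antiviral effectors, Ifi27l2a, a small mitochondrial membrane protein, showed the largest change of all 39 members. It was measured at 1.91 to 8.48 CPM in control (median 4.72) and at 15.5 to 38.99 in MCD (median 23.5), with no overlap, a log2 fold change of 2.48 (SE 0.22, FDR = 3.1e-10). Isg15, the ubiquitin-like modifier itself, ran from 4.93 to 16.0 CPM (median 8.05) in control and from 11.1 to 102 (median 18.2) in MCD, a log2 fold change of 1.86 (SE 0.33). Its highest control library, at 16.0 CPM, was replicate 12. Mx1, of the dynamin-like GTPase family, was scarce, at 0.605 to 2.06 CPM (median 1.45) and 1.31 to 9.42 (median 3.15), and rose by 1.55. Bst2, which tethers budding virions, was the most abundant member, at 150 to 432 CPM in control (median 171) and 163 to 293 in MCD (median 201). Its highest control library was replicate 12, the next being at 211.8 CPM, and 6 MCD libraries lay above all control libraries but that one. Its log2 fold change was 0.13 (SE 0.15, FDR = 0.47), although with total counts alone it passed the threshold at 0.53.

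Usp18, the protease that removes ISG15 and damps the type I receptor, rose by 1.37. Rsad2 (viperin), which makes a chain-terminating nucleotide, rose by 1.28, and its neighbour Cmpk2, a mitochondrial nucleotide kinase, by 1.05. Ifi44 rose by 1.24, Xaf1 by 1.19, Rtp4 by 1.02 and Mx2 by 1.01, the last annotated as a polymorphic pseudogene. Trim30a, a ubiquitin ligase of the TRIM family, rose by 0.94. Parp14, an ADP-ribosyltransferase, did not pass at a log2 fold change of 0.35 (FDR = 0.0411), but did with total counts alone at 0.68.

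The factors that carry the interferon signal did not pass the test across diets. Irf7, the induced factor that drives interferon alpha genes, ran from 48.8 to 129 CPM in control (median 61.2) and from 49.5 to 251 in MCD (median 79.0), a log2 fold change of 0.76 (SE 0.26, FDR = 0.0149). Without control replicate 12, which held the control maximum, Irf7 passed the threshold, as it did with total counts alone at 1.14. Irf9 ran from 13.4 to 34.1 CPM (median 27.0) and from 19.9 to 43.7 (median 29.4), a log2 fold change of 0.20 (FDR = 0.206), which passed the threshold with total counts alone. Stat2 ran from 58.6 to 84.5 CPM (median 66.8) and from 42.1 to 87.8 (median 55.2), a log2 fold change of -0.26 (FDR = 0.0292) that became 0.10 with total counts alone. Irf1, the factor most tied to interferon gamma, was at 27.2 to 49.6 CPM (median 36.4) and 29.8 to 53.7 (median 42.8), a log2 fold change of 0.19 that was 0.54 and past the threshold with total counts alone. Exons of Irf9 overlap those of Rnf31 on the same strand.

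Among the sensors, Zbp1, which binds left-handed nucleic acid and can start necroptosis, did not overlap between the diets. It ran from 5.07 to 11.3 CPM (median 7.31) in control and from 14.1 to 50.2 (median 17.6) in MCD, a log2 fold change of 1.56 (SE 0.20, FDR = 2.41e-07). The RIG-I-like receptors were not called. Dhx58 (LGP2) was at 12 to 22.4 CPM (median 15.4) and 12.1 to 51.8 (median 19.1), a log2 fold change of 0.60 (FDR = 0.0204) that passed the threshold with DESeq2 (0.66) and with total counts alone (0.97). Ifih1 (MDA5) was at 15.8 to 31.0 CPM (median 25.8) and 17.5 to 44.0 (median 20.6), and Ddx58 (RIG-I) at 11.1 to 29.7 (median 22.6) and 13.1 to 36.6 (median 18.1). Their log2 fold changes were -0.03 and -0.06 with TMM factors and 0.32 and 0.27 with total counts alone, none past the threshold.

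The large GTPases, which act on microbe-containing vacuoles and answer strongly to interferon gamma, had 2 of 9 members called and a median log2 fold change of 0.14. Gbp2 rose by 0.72 (SE 0.18, FDR = 0.000902), from 3.38 to 11.1 CPM (median 8.25) to 9.59 to 18.9 (median 12.2), with 11 MCD libraries above every control. Tgtp2 rose by 1.03 (SE 0.21), from 2.95 to 8.54 CPM (median 5.84) to 4.89 to 19.4 (median 9.71). For Tgtp2, however, 90.4% of the 51-base stretches recur elsewhere, nearly all in its copy Tgtp1, so the split of reads between them is uncertain. Iigp1 had the lowest fold change of all members, -0.34 (SE 0.19, FDR = 0.122), with 35.3 to 161 CPM in control (median 110) and 55.9 to 151 in MCD (median 81.2). Irgm1 was at 39.8 to 58.6 CPM (median 43.6) and 33.7 to 90.8 (median 43.2). Gbp3 and Gbp6 were at control medians of 14.5 (6.96 to 24.7) and 9.59 CPM (6.14 to 17.7) and at MCD medians of 13.8 (11.5 to 48.6) and 9.89 (6.99 to 25.6). For Gbp6, 59.5% of the 51-base stretches recur elsewhere, mainly in Gm43302, whose exons it overlaps on the same strand. The log2 fold changes that did not pass were 0.46 for Gbp3, 0.29 for Gbp6, 0.14 for Irgm1, 0.10 for Igtp, -0.06 for Irgm2 and -0.21 for Gbp7. With total counts alone Irgm2 and Gbp7 were positive, at 0.28 and 0.12.

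Per kilobase of transcript, Bst2 stood highest in both diets, at a mean 251 CPM per kb in control and 275 in MCD, and Mx1 and Oas3 were lowest in control at 0.417 and 0.487. Ifi27l2a moved from 9.77 to 54.5 CPM per kb, Ifit3 from 12.7 to 41.0 and Isg15 from 11.1 to 40.2, so that these came next to Bst2 in MCD liver. In control liver that place was held by Iigp1 at 35.6 CPM per kb and Igtp at 21.3.

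The levels of the members split the MCD libraries. No label gives the sex of a library, but the series describes 6 animals of each sex per diet, and 6 libraries of each diet held Y-linked reads while the other 6 held Xist reads and no Y-linked reads. Each library was therefore given a sex-linked position between 0 and 1, from its Xist level against that of Ddx3y, Eif2s3y, Kdm5d and Uty, and a library was not itself given a sex. The MCD libraries with Xist reads lay at positions 0.0677 to 0.0866 (the Xist end) and those with Y-linked reads at 0.861 to 0.959 (the Y-linked end). The control libraries lay at 0 to 0.0702 and at 0.871 to 1. This look at the members along the position was added after the data had been seen. For 27 of the 39 members (69.2%), all 6 MCD libraries at the Y-linked end lay above all 6 at the Xist end, as did 1.57% of all genes.

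Ifit3, for instance, was at 22.4 to 35.7 CPM in the 6 MCD libraries at the Xist end and at 49.5 to 225 in the 6 at the Y-linked end. In control liver the same gene was at 17.98 to 29.2 and 14.8 to 28.4 CPM. Irf7 was at 49.5 to 63.5 CPM at the Xist end of MCD, with 3 of the 6 libraries below its control range there of 52.5 to 82.4, and at 94.4 to 251 at the Y-linked end. Isg15 was at 11.1 to 15.5 against 20.9 to 102 CPM. Ifi27l2a did not divide in this way, at 15.5 to 30.6 and 21.5 to 38.99 CPM, and was above every control at both ends.

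**Figure D2:**
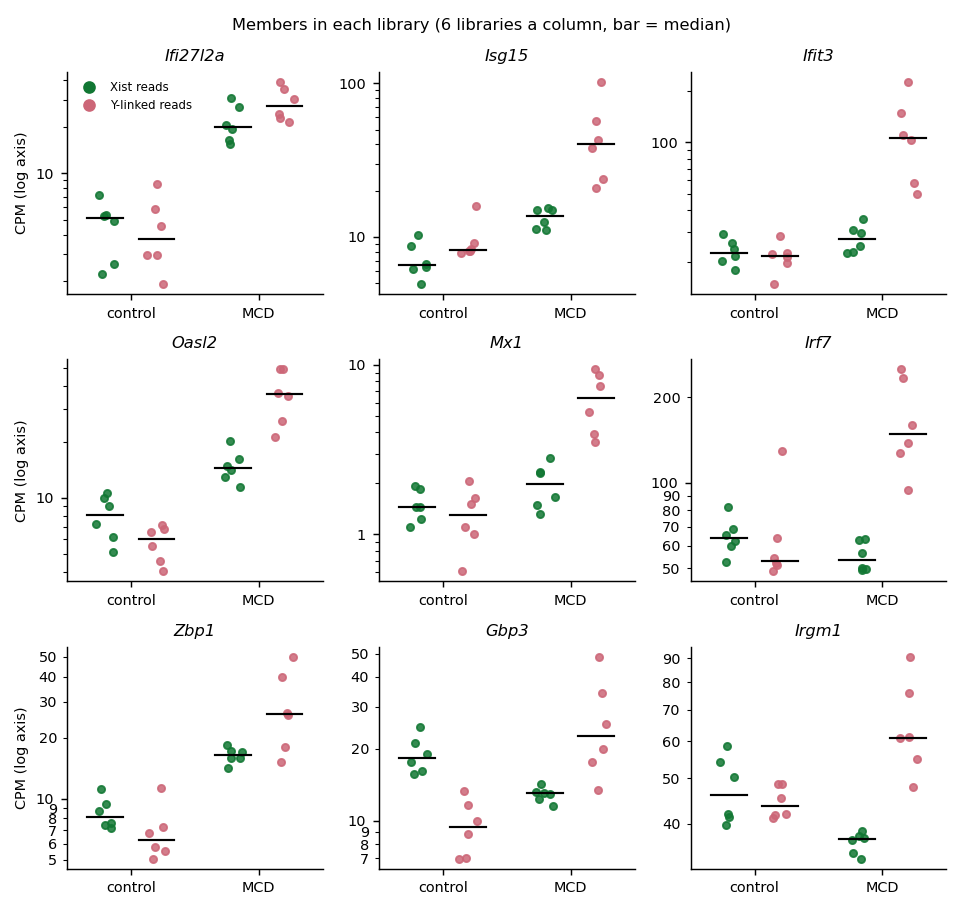
CPM (log axis) of 9 members in each library, with 6 points per column for libraries with Xist reads (green) or Y-linked reads (pink) in control and MCD liver, and a bar at the median. Ifit3 in MCD is at 22.4 to 35.7 CPM in the green points and 49.5 to 225 in the pink, while Ifi27l2a is raised in both.

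**Figure D3:**
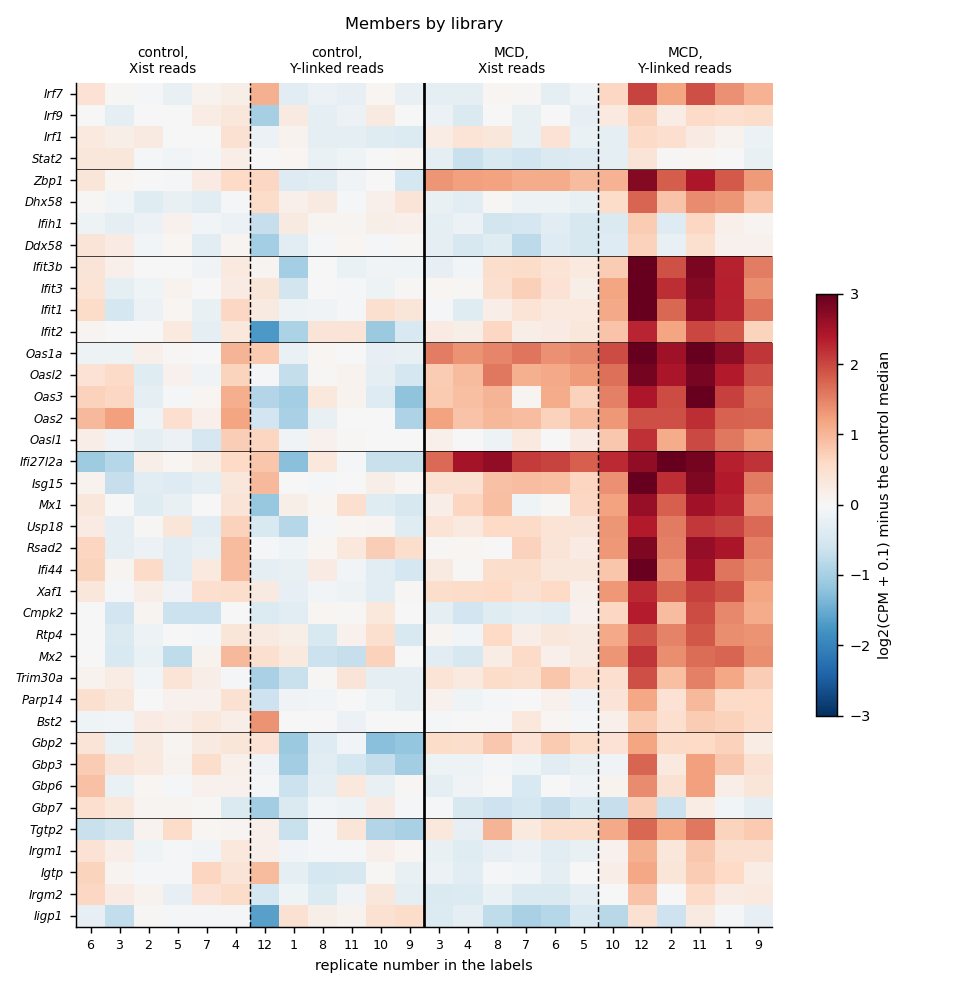
Log2(CPM + 0.1) of each member (rows) minus its control median, by library (columns, replicate number of the labels), with libraries ordered by sex-linked position within each diet and dashed lines between the ends. The 6 MCD libraries with Y-linked reads are raised across most rows, MCD replicate 12 being the highest MCD library for 35 of 39 members, whereas Zbp1, Oas1a, Oasl2 and Ifi27l2a are raised in all 12.

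A fit with diet, position and their product tested whether the diet effect differs along the position. In this fit the Xist end stands for position 0 and the Y-linked end for position 1. No MCD library lay at either position, so the fitted values there extend beyond the MCD libraries. The diet effect differed for 18 of the 39 members (46.2%), each with a larger effect at the Y-linked end, against 40 genes or 0.284% of all tested. The members made up 45.0% of those 40 genes. For 0 members was the effect smaller at that end, with edgeR (also 0 at an unadjusted p under 0.05), DESeq2 or limma-voom, and all 39 edgeR estimates were positive (median 1.46 on the log2 scale). DESeq2 called 27 members with a larger effect and limma-voom 12. The 18 were Irf7, Ifit1, Ifit3, Ifit3b, Oas2, Oas3, Oasl1, Oasl2, Usp18, Rsad2, Cmpk2, Ifi44, Xaf1, Parp14, Rtp4, Gbp3, Irgm1 and Irgm2. Ifit3b had the largest difference, 2.90 (SE 0.48, FDR = 0.00157), and Irgm1 the smallest called, 1.12 (SE 0.20, FDR = 0.00357). Ifi27l2a and Iigp1 showed 0.59 (FDR = 0.589) and 0.20 (FDR = 0.854). The count depended on single libraries, being 11 without MCD replicate 11, 14 without MCD replicate 12, 9 without both, and 23, then including Bst2, without control replicate 12. All 9 and all 11 were among the 18.

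At the Xist end of the same fit, 4 members were higher in MCD, namely Ifi27l2a by 2.17, Oas1a by 1.13, Zbp1 by 0.83 and Oasl2 by 0.75. Stat2 and Irgm2 were lower there, by -0.64 (FDR = 7.95e-05) and -0.75 (FDR = 0.000838), and with total counts alone they stood at -0.34 (FDR = 0.0417) and -0.44 (FDR = 0.0582), no longer past the threshold. These are 10.3% and 5.13% of the members, beside 15.7% of all genes higher and 14.2% lower at that end. With single libraries left out, 2 to 4 members were higher and 2 to 4 lower there. At an unadjusted p under 0.05 with edgeR, 5 members were higher and 8 lower there. Irgm1 stood at -0.47 (FDR = 0.00499), short of the fold limit, with 6 MCD libraries below every control, and at -0.17 with total counts alone. Over the 39 members the median log2 fold change at the Xist end was -0.08, or 0.21 with total counts alone. At the Y-linked end 32 members (82.1%) were higher, beside 17.7% of all genes, with a median of 1.62. There 0 members were lower with edgeR (0 at an unadjusted p under 0.05), DESeq2 or limma-voom. The IFIT genes show the contrast most plainly, with fitted log2 fold changes of -0.16 to 0.11 at position 0 and 2.11 to 2.83 at position 1. The GTPases had medians of -0.47 and 0.71, or -0.17 and 1.19 with total counts alone. The 7 members not called at the Y-linked end were Stat2, Irf1, Ifih1, Ddx58, Bst2, Gbp7 and Iigp1.

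**Figure D4:**
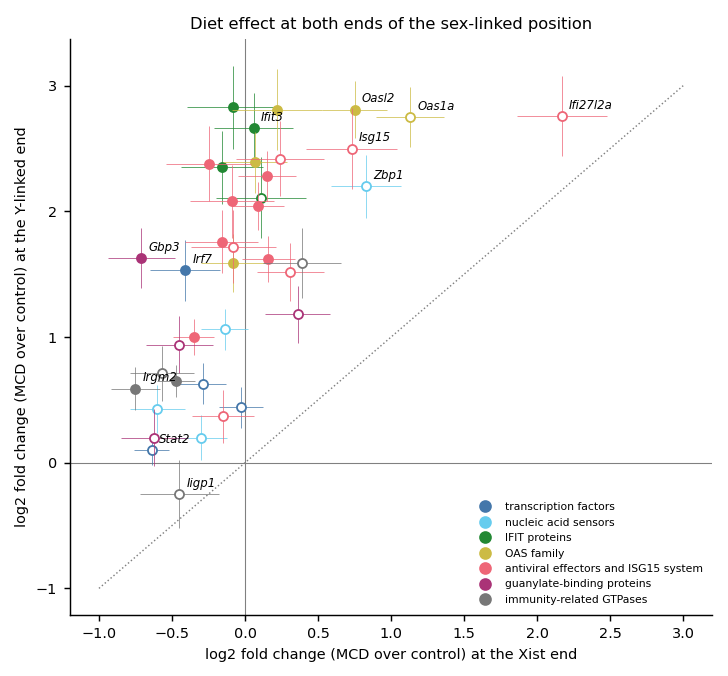
Log2 fold change of MCD over control at the Xist end (x axis) against that at the Y-linked end (y axis) for the 39 members, with SE bars from the same edgeR fit, coloured by role. The ends are positions 0 and 1 of the fit. Filled points are the 18 members whose diet effect differed between the ends, and the dotted line marks equal effects. All 39 points lie above that line, with the IFIT genes between 2.11 and 2.83 on the y axis and near 0 on the x axis.

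Within MCD alone, 21 members (53.8%) increased along the position from the Xist end to the Y-linked end, as did 0.517% of all genes. Within control, 0 members increased (0 called with DESeq2 or limma-voom) and 2 (5.13%), Oas2 and Gbp3, decreased, by -1.23 (FDR = 0.00108) and -1.09 (FDR = 0.00372), as did 2.23% of all genes. At an unadjusted p under 0.05 with edgeR, 1 member increased and 9 decreased within control, and the median over the members was -0.25. Pairwise correlations of the members are given as a description. Over the 6 MCD libraries at the Y-linked end the median Pearson correlation of the 741 pairs of members was 0.88, and over the 6 at the Xist end it was 0.17. In control the values were 0.38 at the Xist end and 0.08 at the Y-linked end, each over 6 libraries that share their scaling. MCD replicates 11 and 12 exceeded every control library in 32 and 37 of the 39 members, and MCD replicate 4 in 7. The labels give no cage, litter or preparation for a library, so the position and anything else that those 6 animals shared cannot be told apart.

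Among the pathway genes around the members, interferon transcripts themselves were close to undetected. Of 21 ligand genes, 17 had 0 counts in all 24 libraries, including Ifnb1, Ifna4 and Ifnl3, and none passed the filter. A count of 0 allows up to 0.109 to 0.227 CPM per library at 3 counts, by counting error only. Ifng had 1 count over the control libraries and 29 over the MCD libraries, 12 of them at the Y-linked end and 17 at the Xist end, and Ifnl2 had 1 in MCD. Ifnk had 2 and 1 counts and Ifnz 1 and 5 over the control and MCD libraries. The receptors were measured. The interferon gamma receptor chains Ifngr1 (1.16, FDR = 3.87e-11) and Ifngr2 (0.57, FDR = 7.74e-06) rose, as did Il10rb (1.39), the shared chain of the interferon lambda receptor, and Ifnlr1 (2.60), its private chain, from 0 to 0.408 CPM in control to 0.561 to 2 in MCD. The type I receptor chains Ifnar1 and Ifnar2 stood at log2 fold changes of -0.19 and -0.24 and did not pass, and with total counts alone at 0.16 and 0.15.

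Among the kinases, Jak1 stood at a log2 fold change of -0.35 and Tyk2 at -0.40, and neither passed across the diets, with 0.00 and -0.06 from total counts alone. Of 6 other interferon regulatory factors, the myeloid factors Irf5 (1.78) and Irf8 (1.42) rose. In upstream sensing 4 of 13 tested genes rose and 1 fell. Sting1, the adaptor for cytosolic DNA, rose by 1.55 and the endosomal receptors Tlr7 and Tlr9 by 1.36 and 1.22, while Mavs, the adaptor of the RIG-I-like receptors, fell by 1.2 (FDR = 1.18e-12). Of 10 negative regulators, Socs1 (1.76) and Irf2bp2 (0.54) rose. Within MCD, 1 of the 40 tested pathway genes increased along the position. In diet effect along the position 0 of the 40 tested pathway genes differed with edgeR or limma-voom (8 at an unadjusted p under 0.05 with edgeR), and DESeq2 called 1.

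A further list of 72 interferon-induced genes outside the 39 showed a broader pattern. Of the 70 tested, 34 rose and 5 fell, with a median log2 fold change of 0.51 against 1.01 for the members and -0.10 for all genes. The highest called genes with at least 1 CPM on average were Slfn2 (2.43), Ccl5 (2.21), Oas1g (2.16), Slfn1 (2.14) and Tgtp1 (2.06), and the lowest were Lgals9 (-0.87), Cxcl11 (-0.80), Dtx3l (-0.66), Trim14 (-0.59) and Helz2 (-0.52). Gbp2b, which the filter removed, was at 0.509 to 7.12 CPM in control (median 2.50) and 0.0426 to 0.315 in MCD (median 0.174), with every MCD library below every control, and stood at -3.82 (SE 0.39, FDR = 4.11e-09) when no filter was applied. With total counts alone Cxcl11, Dtx3l, Trim14 and Helz2 no longer passed, at -0.46, -0.30, -0.25 and -0.19. The diet effect was larger at the Y-linked end for 9 of the 70 (12.9%), namely Znfx1, Samhd1, Adar, Ifi203, Pml, Ifi207, Sp110, Ifi209 and Slfn8. The other 13 of the 40 genes were on neither list and included Asns (4.27), Ifi206 (2.66) and Cd274 (2.01), the gene of PD-L1. Absence from these lists does not show that a gene is not induced by interferon. Of all tested genes, 18 had a smaller diet effect at the Y-linked end.

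Markers of other cell types moved with the diet. All 8 markers of monocyte-derived macrophages rose, from a summed 60.3 to 205 CPM in control to 1366 to 3265 in MCD, while 5 of 6 Kupffer cell markers fell. Endothelial markers fell in 5 of 6 genes, from a summed 189.9 to 283 CPM in control to 105 to 175 in MCD. Over all 72 tested markers, 38 were higher and 13 lower with TMM factors, against 41 higher and 4 lower with total counts alone. The falls of Kupffer cell and endothelial markers therefore did not all hold under the other scaling. All 5 cholangiocyte markers rose, from 30.1 to 146 CPM to 452 to 904, as did all 5 of proliferating cells, the 3 tested of neutrophils and 4 of 6 of mesenchymal cells, of which 1 fell. T and NK cell markers rose in 5 of 6 tested genes (2.15 to 10.1 against 8.93 to 22.3 CPM), and 0 of the 5 B cell markers passed (1 higher at an unadjusted p under 0.05, and Ighm lower with DESeq2). Along the position within MCD, 0 of the 72 tested markers changed with edgeR, DESeq2 or limma-voom (5 higher and 4 lower at an unadjusted p under 0.05 with edgeR). In diet effect along the position 0 markers differed with edgeR, but 15 had a larger effect at the Y-linked end and 0 a smaller one at an unadjusted p under 0.05, and DESeq2 called Ly6c2 and Vsig4. Within control, 18 markers decreased and 3 increased along the position at an unadjusted p under 0.05 with edgeR. Csf1r and Vsig4, which were called, were among those that decreased. In MCD the macrophage sum was 1475 to 1989 CPM at the Xist end and 1366 to 3265 at the Y-linked end, and the T and NK cell sum was 11.6 to 22.3 and 8.93 to 21.4 CPM, so the ends overlapped. Siglech, which marks plasmacytoid dendritic cells, had 0 to 8 counts per control library and 8 to 20 per MCD library and was not tested. Of the 6 genes of that list 1 of the 3 tested rose, with sums of 180.1 to 450.3 CPM in control and 255 to 402 in MCD, most of it Bst2, and 3 of 6 markers of conventional dendritic cells rose. The part of cell composition in the rise of the members was not tested.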

How the data were processed

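RNA-Seq of poly(A) RNA from whole mouse liver was analysed in 12 control and 12 MCD libraries. The values deposited by the authors are raw read counts per Ensembl gene. The submitters' processing notes name bcl2fastq, STAR 2.7.3a and the mm10 build, without their roles. For RNA-Seq the study's methods name an exon quantification pipeline, PISCES and a stranded mRNA kit, with a human reference. They do not say which of these applied to the mouse counts. The counter, annotation and strand setting of the mouse counts are thus uncertain. Reads shared by near-identical or overlapping genes may therefore be split or lost.

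Low genes were removed with filterByExpr. The quasi-likelihood test of edgeR 4.0.16 (R 4.3.3) on TMM-scaled libraries compared MCD with control without a covariate. A call needed FDR ≤ 0.01 (Benjamini-Hochberg over all 14109 genes) and |log2FC| > 0.5. The SE is |log2FC| over the root of the F statistic. CPM values use TMM factors. Alternatives were other scalings and filters, DESeq2 1.42.0, limma-voom (limma 3.58.1), a replicate block, a sex-linked covariate, other limits, and omission of single libraries. The fit with the sex-linked position (Xist against 4 Y-linked genes, log2 with 0.1 CPM added) and its product with diet was added after the data were seen. The diet test and the test of the product were run on simulated counts with edgeR, DESeq2 and limma-voom. The other scalings and filters, the block, the covariate, the values at the ends and those within a diet were not simulated. Correlations used log2 CPM with a prior count of 2.

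Replicates are separate libraries. No source ties a number to a shared animal, litter or day across diets, and not all same-numbered pairs had correlated deviations, so the numbers were not taken as pairs. Every member is named with its fold change, and CPM per diet is given for the 3 largest changes and the most abundant gene of each role. Pathway genes are named where called with |log2FC| > 1, as are receptors and detected ligands, and of the other interferon-induced genes the 5 highest and 5 lowest called with a mean of at least 1 CPM. Jak1, Tyk2, Irf2bp2, Gbp2b, the marker genes and the genes named from the position fit were chosen after their values were seen. The values of 1 pathway gene are not reported here. The members and gene lists were chosen with earlier results of these data known. Coordinates are GRCm38 (mm10), from GENCODE M21 and RefSeq windows of GRCm38.p6.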

Additional observations from a re-analysis of the deposited data

Results flagged for a closer look

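The difference of the diet effect along the sex-linked position was singled out for 18 members, because the test of the product of diet and position passed an FDR of 0.01. On the log2 scale the fitted effect was larger at the Y-linked end (position 1) than at the Xist end (position 0). The difference was 2.90 for Ifit3b, 2.63 for Ifi44, 2.60 for Ifit3, 2.59 for Oas3 and 2.51 for Ifit1. The effect was larger by 2.34 for Gbp3, 2.32 for Oas2, 2.17 for Rsad2, 2.13 for Usp18 and 2.05 for Oasl2. For Xaf1 the value was 1.95, for Irf7 1.94, for Cmpk2 1.92, for Oasl1 1.67, for Rtp4 1.46, for Parp14 1.36, for Irgm2 1.34 and for Irgm1 1.12. The position was derived from these libraries and the labels give no sex, so it is a measured quantity and not a group of the study.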

How the results depend on the processing

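The 23 members higher in MCD became 18 with limma-voom, 20 with a log2 limit of 1, 25 with DESeq2 and 29 with total counts alone. The count of members lower stayed at 0 except for 1 when the FDR limit was 0.05 and no fold was required. This setting also gave 5221 genes lower, 28 pathway genes, 116 genes with a larger diet effect at the Y-linked end and 8 members lower at the Xist end. A log2 limit of 1 gave 686 genes lower, 24 other interferon-induced genes, and 2 members higher and 0 lower at the Xist end. Total counts alone gave 4539 genes higher and 848 lower (84.3% higher, against 50.2% with TMM factors), 24 genes with a larger effect at the Y-linked end and 0 members lower at the Xist end. Upper-quartile factors gave 1710 genes lower (65.6% of calls higher), and requiring at least 10 counts in every library left all genes higher in MCD at 1801. DESeq2 called 119 genes with a larger effect at the Y-linked end and 27 members.

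With a replicate block 19 members were higher in MCD, 8 had a larger effect at the Y-linked end, and 23 of all genes did. The block, which lost the calls of Ifit1, Rsad2, Cmpk2 and Ifi44, rests on a number that was not shown to pair the libraries: 8 of 12 same-numbered pairs had a correlation of their deviations above 0.1 (from -0.28 to 0.35, median 0.23, against -0.06 for other pairs), and 2 of 12 control libraries correlated best with their own number. Without MCD replicates 11 and 12 the last counts were 9 and 13, and 20 members were higher in MCD, with Oasl1, Mx2 and Cmpk2 lost. Leaving out single libraries gave 11 to 23 members and 21 to 67 genes with a larger effect at the Y-linked end, 2 to 4 members higher and 2 to 4 lower at the Xist end, and 23 to 25 members higher in MCD.

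The members that changed sign were not called in the comparison of the diets. With total counts alone the log2 fold changes were 0.10 for Stat2, 0.32 for Ifih1, 0.27 for Ddx58, 0.12 for Gbp7, 0.28 for Irgm2 and 0.0021 for Iigp1. With upper-quartile factors they were 0.1215, 0.0835 and 0.0856 for Ifih1, Ddx58 and Irgm2, and with at least 10 counts in every library 0.0562, 0.0197 and 0.0201. Ifih1 was at 0.0384 with RLE factors, 0.0387 with DESeq2 and 0.0141 without a filter, and Irgm2 at 0.0001 with DESeq2. Without MCD replicates 11 and 12, Igtp was at -0.0545, Irgm1 at -0.0182 and the difference for Iigp1 along the position at -0.13. Single libraries left out moved Ifih1 from -0.0882 to 0.0567, Ddx58 from -0.1201 to 0.0301 and Irgm2 from -0.1216 to 0.0182. The cause was not tested for any of these.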
